A study of Mus musculus with 4 samples.

Results

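The genes described here are the cadherins and protocadherins, together with the giant cadherins of the Fat, Dchs and Celsr families. Members were taken from the deposited table of accessible regions, in which each region carries the name of the gene with the nearest transcription start site, by the symbols Cdh followed by a number, Pcdh, Fat1 to Fat4, Dchs and Celsr. This gave 158 of 29121 regions and 49 of 15091 genes. Of these regions, 31 lay within 1000 bases of the start site and stand here for 30 promoters, and 127 lay farther away and were summed as distal regions of 39 genes. A total of 20 genes had both kinds. The annotation lists 102 genes under these symbols. Outside the clustered protocadherins 41 of 44 had a region named for them, whereas 8 of the 58 clustered protocadherins had one. No region was named for Cdh1, Cdh16 or Pcdh12, which does not mean that all of them lacked peaks. The peak lists called per sample placed a peak inside Cdh16 in every library. Inside Cdh1 a peak was called in every library except control 1, while Pcdh12 had no peak in any list.

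Accessible chromatin was measured by ATAC-seq, in which the Tn5 transposase cuts open DNA, in neurospheres from the hippocampus of C57BL/6 mice at postnatal day 0. They were cultured in FGF2 and EGF, each at 20 ng/ml, over 7 days. There were 2 control cultures (hGFAPCre+, Fgf13+/y) and 2 Fgf13cko cultures (hGFAPCre+, Fgf13 flox/y), so that both groups carried the Cre transgene, which is named for the human GFAP promoter, and only the latter had a floxed allele of the X-linked gene Fgf13. The design text names littermates as controls, and the growth protocol states that the cells of 1 mouse filled 2 wells. The sources used here do not tie each culture to a mouse of its own, so every p-value is set against a spread between samples that may be technical.

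Cadherins are calcium-dependent adhesion proteins of the cell surface. Classical cadherins bind like cadherins on neighbouring cells and anchor actin through catenins, and N-cadherin (Cdh2) holds the junctions of neural progenitors. Protocadherins lack the catenin-binding tail, and those of the alpha, beta and gamma clusters are switched on in changing combinations that give neurons surface identities. Fat and Dchs proteins bind each other, and Celsr proteins act in planar cell polarity, axon guidance and neuronal migration.

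The gene-naming regions held between 2.55 and 3.24 M tags (aligned reads as counted in the deposited table) per library. Mitochondrial regions took 67.7% (control 1), 68.4% (control 2), 38.5% (Fgf13cko 1) and 31.5% (Fgf13cko 2) of all region tags, and they were left out of every library size. The part of this difference in the results was not tested. None of the 4 regions of Fgf13 passed the test (adjusted p from 0.0986 to 0.999, unadjusted p below 0.05 for 1), and which of them lie in the deleted stretch is not given in the sources used here, so accessibility does not check the genotype. Of 12 neural progenitor markers 10 had a measured promoter, among them Sox2, Pax6 and Vim. So had 4 of 8 neuron, 4 of 6 astrocyte, 4 of 7 oligodendrocyte lineage and 2 of 4 ependymal and choroid plexus markers. For microglia it was 1 of 6, for endothelium and pericytes 2 of 6 and for meningeal fibroblasts 2 of 6. Distal sums were measured for 11, 4, 4, 6, 4, 2, 5 and 4 markers of these lists in the same order. In Fgf13cko the promoters of Fabp7 and Nes (progenitor) and of Map2 and Syt1 (neuron) rose, and that of Gpr17 (oligodendrocyte lineage) fell. DESeq2 called 1 of the 10 progenitor and 1 of the 4 neuron promoters, both as rises, and no oligodendrocyte promoter. The Sox1 and Sox9 promoters had log2 fold changes of -0.29 and -0.27 (adjusted p = 0.421 and 0.356). Among distal sums, those of Fabp7, Aldh1l1 (astrocyte) and Olig1 (oligodendrocyte lineage) rose, while those of Gfap (astrocyte, adjusted p = 0.00682) and Msi1 (progenitor, adjusted p = 0.0116) fell. The summed promoter counts of the 4 neuron markers measured of 8 were 390 and 411 in controls and 643 and 705 in Fgf13cko. Dcx, Neurod2, Rbfox3 and Stmn2 had no promoter region. The Tubb3 promoter had a log2 fold change of -0.03 (adjusted p = 0.985). Of the 4 neuron distal sums 0 passed the test, with 3 higher in Fgf13cko and 1, Rbfox3, lower (log2 fold change -0.65, adjusted p = 0.242). The part of these marker changes in the cadherin results was not tested. In bulk samples, more cells of a type and more open chromatin per cell cannot be told apart.

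Promoter sequences were available for 29 of the 49 genes in the RefSeq table of build GRCm38.p6. The stretches below, from the plus strand and 5′ to 3′, lie inside the measured promoter regions. Those of Celsr3, Cdh20 and Pcdh17 end before the first annotated base of the gene, whereas that of Cdh18 precedes a start site inside the annotated gene (chr15:22548898-23477491). The first 3 belong to promoters that rose in Fgf13cko, and Pcdh17 is shown beside them as one of the promoters with the most tags that did not pass the test. Capitals mark the GC box (GGGCGG or CCGCCC), the CCAAT box (CCAAT or ATTGG) and the left part of the RE1 element (TTCAGCACC). The stretches are Celsr3 at chr9:108825795-108826022, Cdh20 at chr1:104768270-104768339, Cdh18 at chr15:23036213-23036462 and Pcdh17 at chr14:84443313-84443562.
Celsr3: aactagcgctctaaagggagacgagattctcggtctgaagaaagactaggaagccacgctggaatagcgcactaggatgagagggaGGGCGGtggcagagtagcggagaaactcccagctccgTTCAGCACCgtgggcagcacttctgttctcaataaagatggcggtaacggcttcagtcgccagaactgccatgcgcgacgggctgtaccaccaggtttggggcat
Cdh20: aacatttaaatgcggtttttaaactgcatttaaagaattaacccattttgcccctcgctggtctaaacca
Cdh18: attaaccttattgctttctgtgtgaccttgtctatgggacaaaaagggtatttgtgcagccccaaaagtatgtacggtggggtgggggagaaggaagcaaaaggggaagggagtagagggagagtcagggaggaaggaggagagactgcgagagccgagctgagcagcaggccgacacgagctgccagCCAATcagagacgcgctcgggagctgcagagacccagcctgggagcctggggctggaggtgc
Pcdh17: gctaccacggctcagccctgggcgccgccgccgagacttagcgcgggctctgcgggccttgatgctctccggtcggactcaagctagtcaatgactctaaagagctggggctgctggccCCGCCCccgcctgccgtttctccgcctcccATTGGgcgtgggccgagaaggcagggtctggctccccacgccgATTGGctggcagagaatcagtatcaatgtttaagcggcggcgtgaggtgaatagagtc

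Between them the printed stretches differed in length, in base composition and in these short words. The Celsr3 stretch held 1 GC box and 1 RE1 left part, the Cdh18 stretch 1 CCAAT box, and the Pcdh17 stretch 1 GC box and 2 CCAAT boxes. The much shorter Cdh20 stretch held none of them. Both strands of the full windows of 300 bases around the start site were searched. In the full window Cdh20 did have a CCAAT box, outside the printed stretch. A GC box was present in 11 of 29 member promoters (37.9%) against 35.9% of all 27025 promoters, and a CCAAT box in 15 (51.7%) against 37.9%. The RE1 left part occurred in 2 member promoters, those of Celsr3 and Cdh9 (6.90%), against 0.359% of all. TATAAA occurred in 6.90% against 14.2%, CAGCTG in 10.3% against 16.1%, and TGANTCA in 0 of 29 against 7.93%. The median GC content was 60.3% for members and 52.7% for all promoters. These matches describe the letters of the windows and are not evidence of binding.

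Members lay farther from start sites than other regions. Introns held 80 of the 158 member regions (50.6%) against 34.9% of all tested regions, and 36.7% against 13.2% lay more than 100000 bases from the start site. The median distance was 48.0 kb against 8.57 kb. Members are also long genes, with a median length of 127 kb for the 41 genes outside the clusters against 22.7 kb for all genes named in the table. Of the 158 regions, 115 lay inside the body of the gene they were named for, and the other 43 were assigned by distance alone.

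At promoters, 4 of the 30 members rose in Fgf13cko and 0 fell: the promoters of Celsr3, Cdh20, Cdh4 and Cdh18 gained 1.83-fold to 2.76-fold. Over all 11116 promoters tested, 1.95% rose and 0.477% fell (edgeR's quasi-likelihood test, Benjamini-Hochberg adjusted p below 0.05). Of the members, 12 had an unadjusted p below 0.05 (8 in DESeq2), each of them higher in Fgf13cko. The median log2 fold change was 0.22 for the members and -0.01 for all promoters. Both Fgf13cko libraries lay above both controls at 14 member promoters, against 26.2% of all promoters, and below both controls at 2, against 25.1%. The plot of promoter counts by library shows these values by class.

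**Figure D1:**
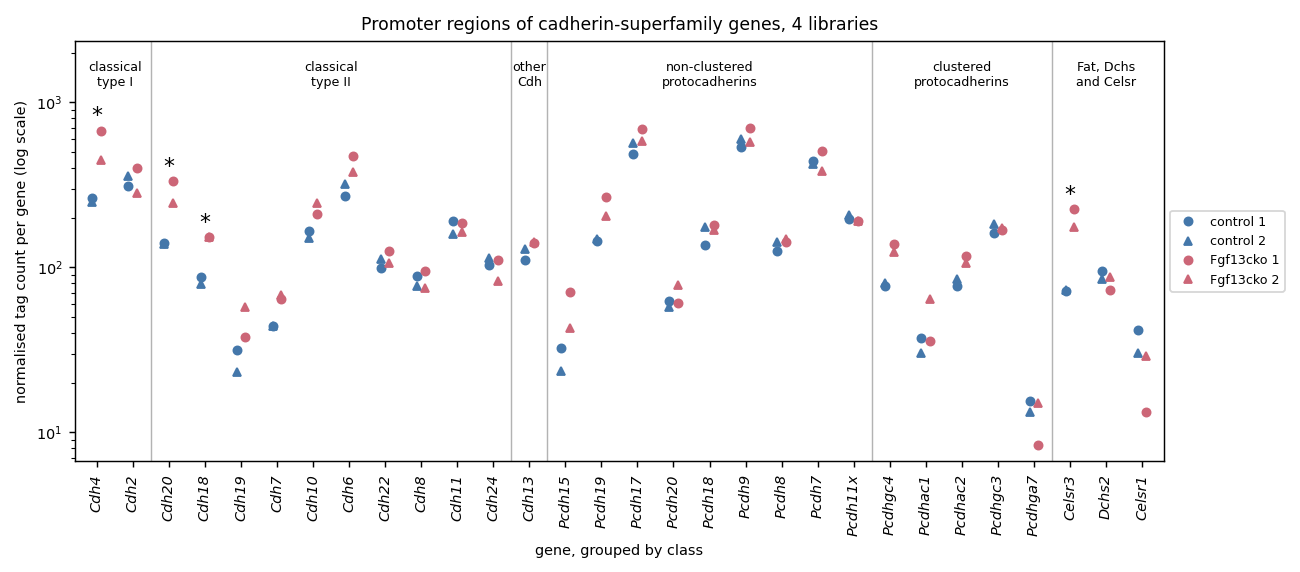
Normalised tag count (vertical axis, log scale) of the promoter regions of the 30 member genes, grouped by class along the horizontal axis, with 1 point per library (blue control, red Fgf13cko, circles replicate 1, triangles replicate 2) and asterisks at adjusted p below 0.05. The red points of Cdh4, Cdh20, Cdh18 and Celsr3 lie above the blue ones, while those of Cdh2, Cdh8, Cdh11 and Pcdh7 lie among them.

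The largest promoter gain was at Celsr3, a multi-pass cadherin required for the growth of long axon tracts. Its normalised count (tags divided by relative library size) was 72.2 and 73.1 in the controls, rising to 224 and 176 in the Fgf13cko libraries. The groups lay well apart, and the log2 fold change was 1.47 (SE 0.19, adjusted p = 0.00437). The Celsr1 promoter held 41.5 and 30.2 in the controls against 13.3 and 28.9 (log2 fold change -0.74, adjusted p = 0.404), and no promoter region was named for Celsr2. The difference between the Celsr genes was not tested. The promoter of Dchs2, of the family that binds Fat4, did not pass the test either (log2 fold change -0.16, adjusted p = 0.714).

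Among the classical cadherins of type I, which carry the adhesive mechanism of N-cadherin, only Cdh4 and Cdh2 had a measured promoter. The Cdh4 promoter (R-cadherin) held 264 and 249 in the controls, rising to 673 and 444 in the Fgf13cko libraries. The Fgf13cko libraries differed more from each other than the controls did, yet both lay above them (log2 fold change 1.13, SE 0.19, adjusted p = 0.0161). The Cdh2 promoter held 311 and 355 against 401 and 283, and the groups overlapped (log2 fold change 0.04, SE 0.18, adjusted p = 0.941).

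Type II cadherins, which mark brain nuclei and circuits in overlapping patterns, had 10 measured promoters, of which 2 rose. Cdh20 held 140 and 138 in the controls against 333 and 246 (log2 fold change 1.06, SE 0.18, adjusted p = 0.0129). Cdh18 held 87.8 and 78.9 against 152 and 153, the tightest of the 4 gains between its Fgf13cko libraries (log2 fold change 0.87, SE 0.18, adjusted p = 0.0302). In both, the groups did not overlap. The promoters of Cdh10 and Cdh6 were also higher in both Fgf13cko libraries but missed the threshold, at log2 fold changes of 0.53 and 0.52 (adjusted p = 0.106 and 0.110). Cdh7 and Cdh19 had log2 fold changes of 0.57 and 0.82 with adjusted p = 0.249 each. The promoters of Cdh8 and Cdh11 gave 0.04 (SE 0.22) and 0.00 (SE 0.17), Cdh22 gave 0.15 and Cdh24 gave -0.16, and the groups overlapped in all 4.

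None of the 9 promoters of non-clustered protocadherins passed the test in edgeR (2 had an unadjusted p below 0.05) or in DESeq2 (1). The nearest was Pcdh19, an X-linked partner of N-cadherin, with 143 and 149 in the controls against 266 and 206 (log2 fold change 0.69, SE 0.17, adjusted p = 0.0575). The groups did not overlap there. Pcdh15, a tip-link protein of hair cells, held 32.7 and 23.5 against 70.6 and 42.8 (log2 fold change 1.03, SE 0.36, adjusted p = 0.149), so that a large difference at few tags came with a wide error. Per kilobase of region, Pcdh9 was the most accessible member promoter, at 412 normalised tags per kb in the controls and 459 in Fgf13cko, and it had a log2 fold change of 0.16 (adjusted p = 0.604). The other 6 ranged from -0.09 (Pcdh11x) to 0.28 (Pcdh17). Cdh13 (T-cadherin), which is bound to the membrane by a lipid anchor, gave 0.24 at its promoter (adjusted p = 0.505).

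The promoter calls rested on having both controls. Without control 1, 0 promoters of all genes passed the test (843 had an unadjusted p below 0.05, 8 of them members), and without control 2 also 0 passed (806, 7 of them members). The fold changes themselves moved little: Celsr3 stood at 1.46 without either control, Cdh20 at 1.07 without control 1 and 1.04 without control 2, Cdh4 at 1.17 and 1.08, and Cdh18 at 0.94 and 0.79. Their adjusted p lay between 0.219 and 0.589. Leaving out Fgf13cko 1 or 2 instead gave 9 and 10 member promoters that rose, the 4 among them, and 0 and 1 that fell. Over all promoters 654 and 1376 then rose and 489 and 1385 fell, so the calls multiplied well beyond the members. The fold changes of Celsr3, Cdh20 and Cdh4 moved more here than on removal of a control. Without Fgf13cko 1 and 2 in turn they were 1.28 and 1.63 for Celsr3, 0.82 and 1.26 for Cdh20, and 0.80 and 1.40 for Cdh4. Cdh18 stayed at 0.87 in both. DESeq2 with all libraries called 3 members and not Cdh18 (adjusted p = 0.156).

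Away from promoters, 4 of the 39 members with distal regions rose (8.41% of the 8441 genes tested did so) and 1 fell (3.73%). These shares are near the background. Both Fgf13cko libraries lay above both controls for 12 members (31.7% of all genes) and below them for 9 (27.8%). The members that rose were Cdh20, Cdh4, Cdh13 and Pcdh9, and Cdh15 fell. The median log2 fold change was 0.07 for the members and 0.01 for all genes, and it turned to -0.03 when libraries were scaled by their size alone and to -0.04 with a loess offset, so no direction can be given for the distal regions as a group. Among all distal calls 69.3% were rises, against 57.8% with library size alone and 55.5% with the loess offset. The plot of distal counts by library gives every member.

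**Figure D2:**
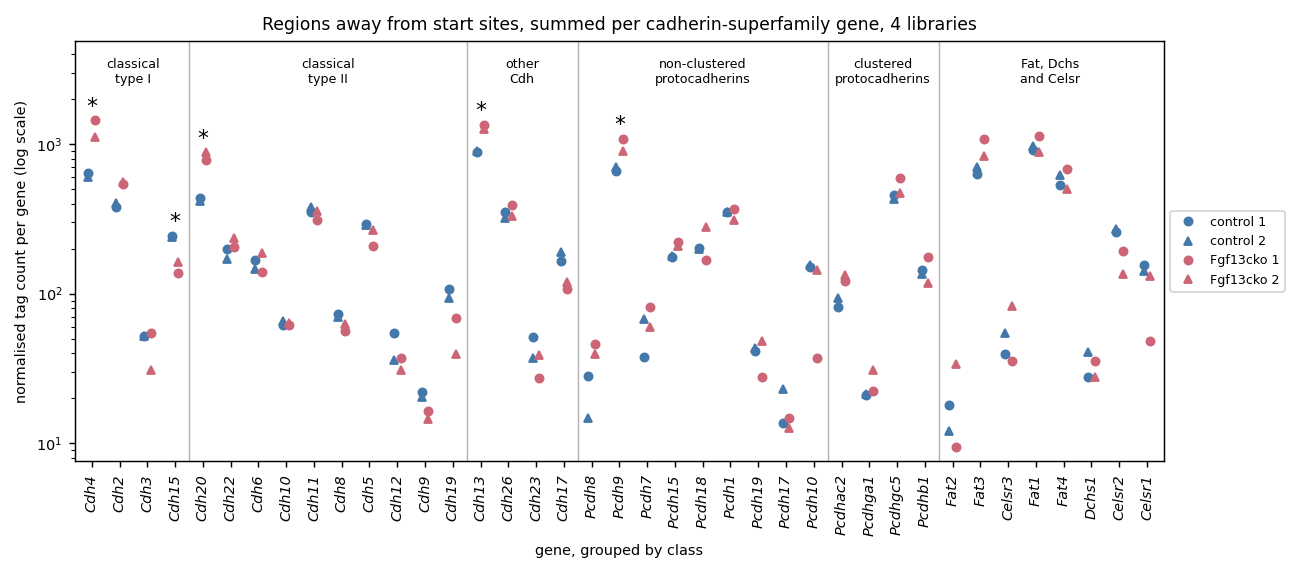
Normalised tag count (vertical axis, log scale) summed over the regions more than 1000 bases from the start site for the 39 member genes with such regions, grouped by class along the horizontal axis, with 1 point per library and asterisks at adjusted p below 0.05. Cdh4 and Cdh20 show the widest separation of the red Fgf13cko points above the blue control points, and Cdh15 lies below its controls.

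Cdh4 and Cdh20 were the members that rose at both the promoter and the distal regions. The 6 distal regions of Cdh4 held 643 and 608 in the controls, against 1448 and 1113 in Fgf13cko (log2 fold change 1.03, SE 0.16, adjusted p = 0.00896). The 7 of Cdh20 held 435 and 414 against 782 and 887 (log2 fold change 0.97, SE 0.14, adjusted p = 0.00686). In both genes the groups were far apart, and the calls held under each other scaling, test and filter that was tried except the removal of a control. Cdh20 was lost without control 1 (adjusted p = 0.0510) and without control 2 (adjusted p = 0.0807), while Cdh4 was lost without control 2 only (adjusted p = 0.0520, against 0.0310 without control 1).

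Cdh13 and Pcdh9 changed by less. The 12 distal regions of Cdh13 held 890 and 898 in the controls against 1351 and 1265 (log2 fold change 0.55, SE 0.13, adjusted p = 0.0299). Restricted to regions within 100000 bases of the start site used for distances, its log2 fold change was -0.06 (adjusted p = 0.864). The gain thus lay in regions farther from that site. The 10 distal regions of Pcdh9 held 659.2 and 707.9 against 1089.8 and 906.8 (log2 fold change 0.54, SE 0.15, adjusted p = 0.0457). Both calls were lost with RLE size factors, with the loess offset, without the filter on low counts, with a replicate block (adjusted p = 0.0852 for Cdh13 and 0.0921 for Pcdh9) and on removal of control 1 or of control 2, and that of Pcdh9 also with library size alone and within 100000 bases. The single distal fall, at Cdh15 (M-cadherin of muscle), went from 244 and 238 to 139 and 164 (log2 fold change -0.67, SE 0.17, adjusted p = 0.0417). This call was lost with DESeq2 (adjusted p = 0.0591), with a replicate block (adjusted p = 0.0518) and on removal of control 1 or of control 2, and both of its regions lie in other genes.

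Several well-known members came close to the threshold or stayed far from it. The distal regions of Cdh2 held 382 and 407 against 539 and 557, with no overlap (log2 fold change 0.47, SE 0.14, adjusted p = 0.0560), while its promoter had overlapped. Fat3, a giant cadherin that shapes neuronal dendrites, held 629 and 707 against 1086 and 830 (log2 fold change 0.52, adjusted p = 0.0750). Its region at chr9:16499709-16502530, with 312 and 355 against 574 and 372, counted as distal at -123 kb from the start site used for distances. That region lies at the upstream end of the annotated gene (chr9:15910189-16502681), so the Fat3 sum is not wholly distal to annotated starts. Celsr2 held 257 and 270 against 193 and 135 (log2 fold change -0.69, adjusted p = 0.0601), and Cdh17, an intestinal cadherin, 165 and 191 against 107 and 119 (log2 fold change -0.65, adjusted p = 0.0601). In each of these the groups were apart, in the direction of the fold change. Fat1 and Fat4, with 6 and 5 regions, overlapped between groups (log2 fold changes 0.11 and 0.03). Dchs1 gave -0.15, Celsr1 -0.71 (adjusted p = 0.249) and Pcdh10 -0.72 (adjusted p = 0.343), and in Celsr1 and Pcdh10 Fgf13cko 1 was the lower library (48.3 against 131 in Fgf13cko 2 at Celsr1, and 37.1 against 145 at Pcdh10).

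**Figure D3:**
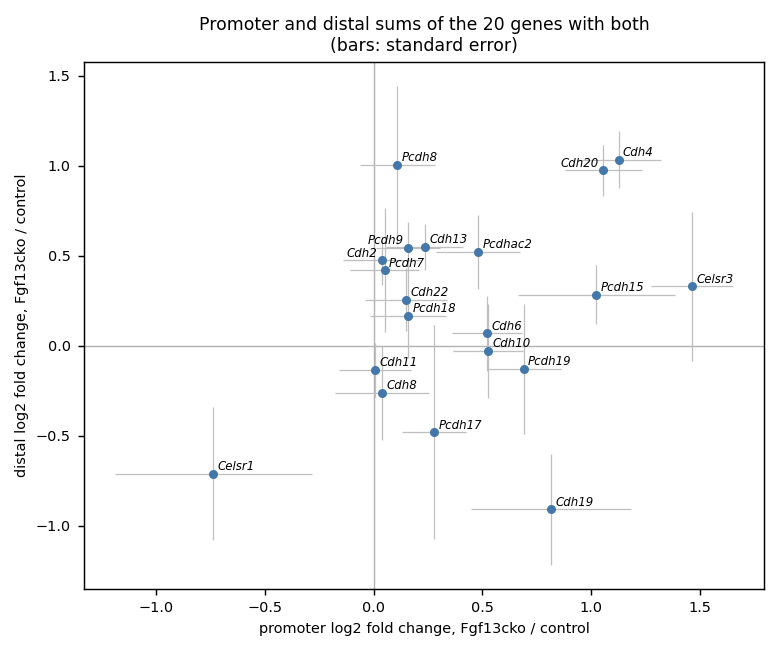
Log2 fold change (Fgf13cko over control) of the promoter (horizontal axis) and of the summed distal regions (vertical axis) for the 20 member genes with both, with bars of 1 standard error. Cdh4 and Cdh20 stand together near 1 on both axes, Celsr3 lies at 1.47 for its promoter and 0.33 for its distal region, and Cdh19 lies at 0.82 and -0.91.

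Single regions showed where these sums came from. Of the 158 member regions 20 rose and 5 fell, against 5.73% and 1.79% of all 28808 tested regions (7.52% in either direction). Among regions more than 1000 bases from a start site, 16 of 127 members rose and 5 fell, against 8.76% and 2.43%; both Fgf13cko libraries lay above both controls at 50 of them (33.1% of all such regions) and below at 18 (23.8%). Within 1000 bases, 4 of 31 rose and 0 fell, against 1.14% and 0.821% (1.97% in either direction), and the groups lay apart upwards at 12 (17.4%) and downwards at 4 (32.1%). The groups lay apart upwards at 62 member regions (26.9% of all regions) and downwards at 22 (27.1%). The loess offset changed the share of rises among all called regions from 76.2% to 63.6%. The 3 genes Cdh4, Cdh20 and Cdh13 supplied many of the distal rises, and without them 8 of 102 distal member regions rose and 5 fell.

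**Figure D4:**
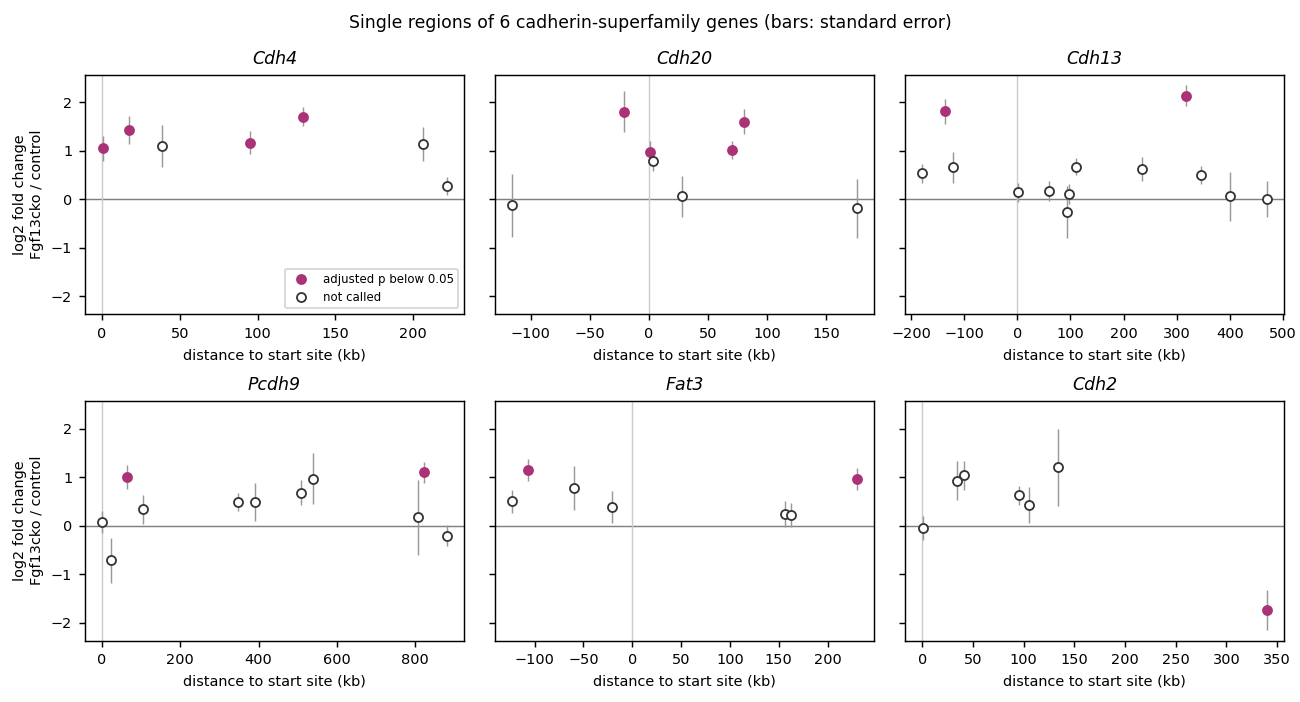
Log2 fold change of single regions (vertical axis, with bars of 1 standard error) against their distance from the start site of the gene in kb (horizontal axis) for Cdh4, Cdh20, Cdh13, Pcdh9, Fat3 and Cdh2, with filled points at adjusted p below 0.05. All 7 regions of Cdh4 and all 7 of Fat3 lie above 0. So do 12 of 13 regions of Cdh13 and 9 of 11 of Pcdh9, with medians of 0.51 and 0.48.

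At Cdh4, both Fgf13cko libraries lay above both controls at 7 of 7 regions, all inside the gene, from 0.392 to 222 kb downstream of the start, and 4 passed the test (3 in DESeq2). The region with the largest gain, in an intron at chr2:179571011-179571846 and annotated as an LTR repeat, held 83.4 and 78.3 against 276 and 251 (log2 fold change 1.71, SE 0.19, adjusted p = 0.00387). The last region of the gene, at 222 kb, held 164 and 146 against 188 and 189, a log2 fold change of 0.28 (adjusted p = 0.415). At Cdh20, 4 of 8 regions rose, 3 of them inside the gene and 1 before the gene, at -21.5 kb, and the outermost regions on each side overlapped between groups (log2 fold changes -0.12 and -0.18). The intronic Cdh20 region at chr1:104848101-104849245 held 46.4 and 32.0 against 116 and 122 (log2 fold change 1.61, adjusted p = 0.00889). The upstream one held 65.7 and 45.8 against 113 and 272, an uneven gain that was lost with library size alone, the loess offset and a mean count of at least 50.

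At Cdh13, 2 of 13 regions rose. Its intronic region at chr8:118601457-118602526, at 318 kb from the start site, held 45.9 and 42.4 against 211 and 177 (log2 fold change 2.14, SE 0.21, adjusted p = 0.00387), the largest gain of any member region. A second, at chr8:118147314-118148234, held 28.6 and 31.6 against 98.6 and 113 (log2 fold change 1.82, SE 0.25, adjusted p = 0.00572). This second region lay at -136 kb from the start site used for distances. It was nonetheless inside the annotated gene, near its first base at 118140017. The other 11 regions of Cdh13, the promoter included, had log2 fold changes from -0.26 to 0.68, and none passed the test. The region at 318 kb passed under all 12 alternatives, with adjusted p of at most 0.0396. Without control 2 it was the only member region to pass, and without control 1 it passed beside 3 others (Cdh13 at 118147314, Cdh4 at 179571011 and Cdh20 at 104848101). Without Fgf13cko 1 or 2, 45 member regions rose in either case, and 10 and 14 fell. Over all regions 4063 and 5267 then rose and 2949 and 4850 fell.

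Pcdh9 followed a like pattern: regions at 64.5 and 823 kb rose (log2 fold changes 1.01 and 1.10, adjusted p = 0.0438 and 0.0193) and 9 did not pass. Fat3 had a higher Fgf13cko mean at 7 of 7 regions, of which those at chr9:16484868-16485551 and chr9:16147550-16148421 rose (1.15 and 0.96, adjusted p = 0.0176 and 0.0332). Fat1 rose at 1 intronic region of 6, where 94.3 and 108 became 181 and 208 (log2 fold change 0.94, adjusted p = 0.0230). Single distal regions also rose at Pcdh15 (1.35, adjusted p = 0.0347) and, 164 kb from the start and outside the gene, at Pcdh18 (1.63, adjusted p = 0.0281). DESeq2 did not call the Pcdh9 region at 64.5 kb, the Fat3 region at 16147550 or that of Pcdh15, and gave no adjusted p for that of Pcdh18. The Pcdh9 region at 64.5 kb was also lost with library size alone (adjusted p = 0.0573).

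The 5 falls included 1 region each of Celsr1 and Celsr2. An intronic Celsr1 region at chr15:85994021-85994516 went from 92.3 and 70.1 to 16.5 and 27.3 (log2 fold change -1.90, SE 0.34, adjusted p = 0.0141), and a Celsr2 exon region at chr3:108401735-108402451 from 149 and 141 to 84.4 and 72.9 (log2 fold change -0.87, adjusted p = 0.0333). An intronic Cdh17 region fell from 100.2 and 119 to 30.2 and 45.6 (log2 fold change -1.53, adjusted p = 0.0137). The remaining falls were outside the gene they were named for: an LTR repeat 340 kb downstream of the Cdh2 start (62.7 and 58.8 to 25.1 and 11.5, log2 fold change -1.74, adjusted p = 0.0357) and a region named for Cdh15 inside Ankrd11 (206 and 211 to 112 and 132, log2 fold change -0.77, adjusted p = 0.0421). None of the 5 passed when control 1 or control 2 was left out, and DESeq2 called only those of Celsr1 and Cdh17. In Cdh2 the other distal regions had log2 fold changes from 0.43 to 1.20, none of which passed.

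The clustered protocadherins, a row of genes on chromosome 18, are described apart. In the alpha and gamma clusters, though not in the beta cluster, variable exons share common downstream exons. Only 12 regions were named for them: 4 for the alpha, 1 for the beta and 7 for the gamma cluster. The Pcdhb1 region (at -47.2 kb) and the Pcdhga1 region (at -6.33 kb) lay outside the annotated clusters and were assigned by distance. The 12 regions were named mostly for the C-type isoforms (Pcdhac1, Pcdhac2, Pcdhgc3, Pcdhgc4 and Pcdhgc5). Of the stochastically chosen alternate isoforms only Pcdhga7 had a promoter region. Reads from stretches that are alike between these paralogs may be split or lost by the alignment, so the counts of single isoforms are uncertain. Summed over the 12 regions, normalised tags were 1070 in each control and 1364 and 1249 in Fgf13cko, a ratio of 1.22 of the means. The alpha regions held 196 and 211 against 274 and 298 (ratio 1.41). The gamma regions held 732 and 727 against 920 and 823 (ratio 1.19), and the beta region 142 and 131 against 170 and 128 (ratio 1.09). The groups were apart for alpha and gamma and overlapped for beta. These sums over several genes were described and not tested.

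**Figure D5:**
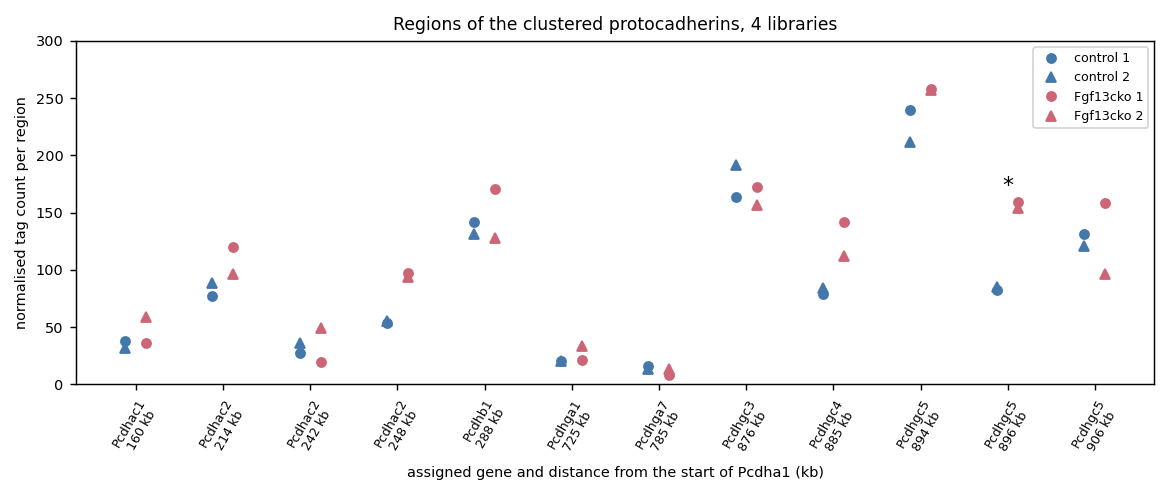
Normalised tag count (vertical axis, linear from 0) of the 12 regions named for clustered protocadherins, in order along the chromosome with their distance from the start of Pcdha1 in kb (horizontal axis), with 1 point per library and an asterisk at adjusted p below 0.05. The marked Pcdhgc5 region goes from 82.4 and 84.8 in the controls to 160 and 154 in Fgf13cko, while the Pcdhga7 promoter lies between 8.55 and 15.8 in the 4 libraries.

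Of the 12 regions, 1 rose and 0 fell: an intronic region assigned to Pcdhgc5, at chr18:37825936-37826733 and 6.79 kb downstream of its start. This region lies inside every annotated gene of the gamma cluster, so it cannot be credited to Pcdhgc5 alone. It held 82.4 and 84.8 in the controls against 160 and 154 (log2 fold change 0.90, SE 0.19, adjusted p = 0.0245). Its groups were far apart. The call was lost with DESeq2 (adjusted p = 0.0668) and on removal of control 1 or of control 2. The next nearest was an intronic Pcdhac2 region 34.5 kb downstream of the start, with 53.3 and 54.9 against 97.5 and 93.8 (log2 fold change 0.82, adjusted p = 0.0597). It likewise lies inside every annotated gene of the alpha cluster. Of the 5 promoters in the clusters, that of Pcdhgc4 held 77.5 and 80.1 against 138 and 124 (log2 fold change 0.72, SE 0.19, adjusted p = 0.0661), and that of Pcdhac2 had a log2 fold change of 0.48 (adjusted p = 0.198). In both the groups lay apart. Pcdhac1, Pcdhgc3 and Pcdhga7 overlapped between groups.

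The deposited table holds only regions with a peak in all 4 samples, so peaks of 1 group were read from the peak lists that the authors called for each sample. The lists held 38006 and 47148 peaks in the controls, against 64954 and 54373 in Fgf13cko, and 176 and 230 against 318 and 266 of these lay inside member genes. As a share of each list this was 0.463% and 0.488% in the controls, against 0.490% and 0.489% in Fgf13cko. Of the peaks in member genes, 17.6% and 21.4% in the 2 Fgf13cko lists were present in both of these lists and in neither control list, against 15.4% and 18.5% of all peaks. In the control lists 5.68% and 3.91% were present in both controls and neither Fgf13cko list, against 3.89% and 3.05%. Peaks found in all 4 lists made up 79.0% and 61.7% of the member peaks of control 1 and 2 (77.1% and 62% of all peaks) and 43.1% and 51.5% of those of Fgf13cko 1 and 2 (44.9% and 53.5%). At this setting the shares in members were near those of the whole lists. Among peaks with a -log10 q of at least 5 the difference was wider: 26.3% and 32.3% of the member peaks of Fgf13cko 1 and 2 were found in both of these lists and in neither control list, against 15% and 18.8% of all such peaks, while for the controls it was 6.15% and 5.48% against 5.98% and 5.36%. The share of peaks inside members was then 0.399% and 0.402% in the controls and 0.488% and 0.496% in the Fgf13cko lists. The exact 95% binomial intervals of these shares, which cover counting error only, overlapped (0.308% to 0.508% in control 1 and 0.402% to 0.605% in Fgf13cko 2). The reading thus depends on the peak threshold, and the part of sequencing depth and mitochondrial share in it was not tested.

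Without the stricter threshold, single genes differed in this share. The body of Cdh4 held 15 and 20 peaks in the control lists and 41 and 35 in the Fgf13cko lists, of which 14 were present in both Fgf13cko lists and neither control list, 34.1% and 40% of its peaks. Pcdh15 held 7 and 11 against 15 and 14, with 4 such peaks (26.7% and 28.6%). Cdh13 held 16 and 26 against 42 and 31, with 7 (16.7% and 22.6%), and Cdh20 6 and 9 against 15 and 12, with 3 (20% and 25%), both near the share over all members. Pcdh9 had 13 and 16 against 19 and 18 and lay below it (5.26% and 11.1%), and the clustered protocadherin locus 16 and 20 against 25 and 19. These counts carry no test.

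The partners of cadherins were read from lists of pathway genes. Of the catenins and other junction partners, 0 of 16 promoters passed the test in edgeR (3 with an unadjusted p below 0.05) or DESeq2 (2), while 3 of 13 distal sums rose and 0 fell (1 rose in DESeq2). These were Afdn (afadin, 241 and 252 against 545 and 390, adjusted p = 0.0195), Ctnnd2 (delta-catenin, 477 and 526 against 797 and 670, adjusted p = 0.0482) and Pard3 (a polarity protein, 316 and 317 against 516 and 419, adjusted p = 0.0498). Of the planar polarity genes that act with Celsr and Fat proteins, 0 of 17 promoters passed in edgeR (4 unadjusted) or DESeq2 (1), and at distal regions Lix1 and Vangl1 rose and Prickle3 fell among 10. Of the cohesin and chromatin regulators of the protocadherin clusters, 0 of 20 promoters passed in edgeR (3 unadjusted) or DESeq2 (1). Ctcf was on this list, but no region used here carried its name. Of the 10 distal sums 1, that of the cohesin loader Nipbl, fell from 149 and 133 to 59.5 and 57.2 (adjusted p = 0.0114). Cadherin-superfamily genes outside the symbols used here had 0 of 3 promoters called (1 unadjusted in edgeR, 0 in DESeq2) and 1 of 4 distal sums, the desmocollin Dsc1, which rose (adjusted p = 0.0315). The proteases that cut cadherins had 0 of 7 promoters called (1 unadjusted in edgeR, 0 in DESeq2) and 0 of 1 distal sums. DESeq2 gave no adjusted p for 1, 4, 5, 1 and 0 promoters of these 5 lists. Over all genes 2.43% of promoters and 12.1% of distal sums were called in either direction.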

How the data were processed

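ATAC-seq libraries of 2 control and 2 Fgf13cko neurosphere cultures were compared, with groups and replicate numbers from the sample titles. Per the file headers, the authors deposited estimated counts: unnormalised HOMER tag totals per merged region on mm10. Every value is a multiple of 0.5, and 50.2% are whole; they were rounded to whole numbers. The deposited table holds 29121 regions, each with a peak in all 4 lists. The authors' peak lists, called per sample, give each peak's score, its fold enrichment (a ratio), its -log10 p and its -log10 q, per the column order of the format, and served for positions and for a stricter alternative on q. The tools named in the submitters' processing notes are HOMER, MACS2, DESeq2, Picard and Bowtie2. What each did, in which version, and how the transposase shift and duplicates were treated is not given in the sources used here, and a duplicate or shift left uncorrected would alter the counts.

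Mitochondrial regions and others without a gene name (9 regions) were left out of library sizes and tests; the nuclear ones held at most 0.0213% of region tags in any library. Counts were summed per gene over regions within 1000 bases of the start site given in the table and over the others, and single regions were fitted as well. edgeR 4.0.16 in R 4.3.3 was used (TMM, filterByExpr, robust glmQLFit and glmQLFTest, two-sided, Benjamini-Hochberg adjustment over all features, threshold 0.05), on all 4 libraries without covariates. All 158 member regions, 30 member promoters and 39 distal sums passed the filter. The biological coefficient of variation was 0.127 for promoters, 0.168 for distal sums and 0.191 for regions. Scripts were tested on simulated data. Alternatives were DESeq2 1.42.0, other scalings (RLE, library size, loess), other filters, windows and distances, each library left out and a replicate block. A region is assigned to the nearest start site, which need not be the gene it acts on.

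The members and gene lists were chosen with earlier results of these data known. Named genes are every member called in a fit, the 3 of each class with the smallest p, the 5 with the most counts, and well-known members such as Cdh2 and Fat4. Gene positions come from RefSeq, build GRCm38.p6; all 49 symbols were found there.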

Additional observations from a re-analysis of the deposited data

How the results depend on the processing

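Of 415 values for called genes and regions under the alternatives, 326 kept their direction and their side of the threshold, 88 kept the direction and lost the call, and 1 reversed. Of the lost calls 62 came from leaving out a control. When 1 library was left out, the lone sample was assumed to vary like the other group. Member promoters that rose then ranged from 0 to 10 and those that fell from 0 to 1, of 0 to 2761 promoters called in all. Distal sums of members that rose ranged from 0 to 10 and that fell from 0 to 6 (231 to 3819 of all genes), and member regions that rose from 1 to 45 and that fell from 0 to 14 (137 to 10117 of all regions). The cause was not tested.

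The distal log2 fold change of Cdh13 reversed to -0.055 within 100000 bases, which leaves out its regions farther from the start site used for distances. DESeq2 called 129 promoters in all, 0 members that fell at distal sums, and 13 member regions that rose and 2 that fell. A window of 500 bases left 2 member promoters that rose, from fewer regions. RLE size factors, the loess offset and the absence of a filter each left 2 distal rises of members, and distal falls came to 3 with library size alone, 3 with the loess offset and 4 at a mean count of at least 50. The loess offset called 443 promoters and 3415 regions in all, and the filter at 50 called 438 promoters. With a -log10 q of at least 5, 0.402% of control 2 peaks lay in members, and 26.3% and 32.3% of the member peaks of Fgf13cko 1 and 2 were in both of those lists and neither control list, against 15% and 18.8% of all peaks. The cause of these shifts was not tested.

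Both groups carry replicates 1 and 2, but the labels tie them to no shared mouse or day, and same-numbered deviations correlated at -0.158 for promoters, -0.237 for distal sums and -0.239 for regions. With a replicate block, 5 member promoters, 2 distal sums and 27 member regions rose (the distal calls of Cdh13, Pcdh9 and Cdh15 were lost), and 376 promoters and 3306 regions were called in all. The crossed pairing, chosen after seeing these data, gave 8 member promoters that rose and 0 that fell. Distal sums of members rose at 6 and fell at 6, and member regions rose at 26 and fell at 5. With this pairing 823 promoters, 1914 distal sums and 3306 regions were called in all.

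With 2 libraries a group and Fgf13cko libraries less alike (r = 0.873 across regions) than the controls (0.959), small differences were not detectable.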
